A study of Saccharomyces cerevisiae with 32 samples.

Results

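The genes described here are 45 enzymes of amino acid synthesis in the budding yeast *Saccharomyces cerevisiae*, those of arginine and methionine left out. They were chosen by name, with earlier results of these data known, as the HIS, LEU, ILV, BAT, LYS, TRP, ARO, HOM, THR, ASN and SER enzymes together with PHA2 and TYR1, and they fall into 7 pathway groups. All 45 are among the 7036 genes counted, and all 45 passed the filter on low counts that left 4625 genes for testing. RNA-Seq, which counts fragments of mRNA, and Ribo-Seq, which counts the mRNA fragments covered by ribosomes (footprints), were made from the same lysates in *tma46Δ*, *eif2aΔ*, *stm1Δ* and *wt* cultures. Each strain had 4 cultures, so there are 16 libraries per assay and 32 in all.

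In *tma46Δ* the gene of Tma46, the partner of the ribosome-binding GTPase Rbg1, is deleted. *eif2aΔ* lacks YGR054W, which encodes the translation factor eIF2A, and *stm1Δ* lacks STM1, which encodes a protein bound to ribosomes. The *wt* strain is BY4742, and all 4 strains share its genotype of mating type alpha with *his3Δ1*, *leu2Δ0*, *lys2Δ0* and *ura3Δ0*. Every culture therefore lacked a working step of the histidine, leucine and lysine pathways and depended on the medium for these amino acids, the *wt* cultures included. The 3 deletion strains came from the Yeast Gene Deletion Collection, each as a single strain. Cells were grown to exponential phase, in YPD by the study's methods, while the sample labels name YPD or SD and cycloheximide at 100 µg/ml. The labels also give 7 batches, and *stm1Δ* shares none of them with *wt*: replicate 1 is in a batch with *eif2aΔ* replicate 4, and its other 3 cultures form a batch of their own.

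Yeast makes each of these amino acids from intermediates of central metabolism by a chain of enzymes that is controlled at its first committed step, often by feedback from the end product. When amino acids run short, the kinase Gcn2 phosphorylates eIF2, translation of the transcription factor Gcn4 goes up, and Gcn4 raises transcription of genes in most of these pathways at once. Leu3 and Lys14 add control specific to the leucine and lysine pathways, with an intermediate of each pathway as their cofactor.

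Gcn4 binds the sequence TGACTCA. It was searched on both strands, so that TGAGTCA counts as the same site, in the 400 bases before each start codon of the R64 genome. A match was found for 20 of the 45 members, 44.4%, against 204 of 6008 promoters, 3.40%. It was present before 7 of the 10 leucine, isoleucine and valine genes, 4 of 6 histidine genes, 4 of 13 aromatic genes, 2 of 5 homoserine and threonine genes, both asparagine genes, 1 of 6 lysine genes and none of the 3 serine genes. The shorter TGACTC, which lies within it, was present before 29 members, against 10.3% of all promoters. Such a match is a description of the letters and not of binding.

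The promoters of the 4 members that passed the test in any comparison are shown as a description. Whether they bear on the calls was not tested. Each runs 300 bases, from 350 to 51 bases before the start codon, on the strand of the gene and taken from RefSeq's R64 sequence. Capitals mark TGACTCA, which only the ILV3 window holds.

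LYS20 (chrIV:133087-133386, plus strand): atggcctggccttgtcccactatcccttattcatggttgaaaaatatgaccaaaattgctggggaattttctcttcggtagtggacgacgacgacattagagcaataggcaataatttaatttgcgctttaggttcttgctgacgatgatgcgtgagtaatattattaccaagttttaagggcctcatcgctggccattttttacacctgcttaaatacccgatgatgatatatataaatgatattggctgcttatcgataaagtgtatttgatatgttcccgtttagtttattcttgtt
ILV3 (chrX:466259-466558, minus strand): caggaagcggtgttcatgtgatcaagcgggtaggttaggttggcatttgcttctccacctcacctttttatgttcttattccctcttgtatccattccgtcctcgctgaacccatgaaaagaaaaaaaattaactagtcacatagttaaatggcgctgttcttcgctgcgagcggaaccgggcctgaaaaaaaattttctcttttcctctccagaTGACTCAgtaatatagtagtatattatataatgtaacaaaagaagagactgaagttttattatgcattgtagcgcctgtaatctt
ARO3 (chrIV:521466-521765, plus strand): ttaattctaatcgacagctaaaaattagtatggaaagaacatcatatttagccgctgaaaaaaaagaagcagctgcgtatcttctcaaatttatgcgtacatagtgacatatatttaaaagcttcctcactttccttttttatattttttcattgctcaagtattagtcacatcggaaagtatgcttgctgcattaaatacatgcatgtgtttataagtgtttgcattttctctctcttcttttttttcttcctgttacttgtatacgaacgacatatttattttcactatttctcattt
ILV2 (chrXIII:483734-484033, plus strand): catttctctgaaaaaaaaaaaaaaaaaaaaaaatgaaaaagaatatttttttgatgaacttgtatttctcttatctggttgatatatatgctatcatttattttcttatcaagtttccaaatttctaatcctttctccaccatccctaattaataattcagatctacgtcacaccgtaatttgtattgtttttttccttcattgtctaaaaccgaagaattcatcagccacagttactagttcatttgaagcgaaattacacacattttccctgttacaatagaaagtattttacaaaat

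The leucine pathway also has a motif of its own, bound by Leu3: CCGG, then any 2 bases, then CCGG, a palindrome that reads the same on both strands. It was present before LEU1, ILV5 and BAT1 and before 11 of 6008 promoters, 0.183%. These 3 windows are shown with the motif in capitals, and the Gcn4 windows of LEU1 and BAT1, whose RNA-Seq levels followed each other closely over the cultures, come after them.

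LEU1 (chrVII:478850-478879, minus strand): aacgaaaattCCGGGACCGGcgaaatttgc
ILV5 (chrXII:839611-839640, minus strand): gcggtctcctCCGGTACCGGttctgccacc
BAT1 (chrVIII:517375-517404, plus strand): attgtgtttgCCGGTACCGGcctttaagct
LEU1 (chrVII:478937-478963, minus strand): ttactctagaTGACTCAgtttagtctg
BAT1 (chrVIII:517351-517377, plus strand): tgccttcttaTGACTCAaaattctatt

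Lys14 recognises a core written TCCNNNGGA, which was present before 4 of the 6 lysine genes and 6 of the 45 members, against 4.61% of all promoters.

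Depth and labels set the frame for these values. Counts on genes ran between 4215500 and 6717295 per RNA-Seq library and between 1457024 and 4122370 per Ribo-Seq library, and the lowest count of any member in any library was 125 for mRNA and 14 for footprints. LEU2 and LYS2, deleted in every strain, had at most 3 counts in any library. The deleted genes check the labels: TMA46 had at most 2 counts in *tma46Δ*, YGR054W at most 7 in *eif2aΔ* and STM1 at most 23 in *stm1Δ* libraries, against at least 504, 1007 and 9101 in *wt*. Values are given as CPM, the count per 1e6 counts of a library after TMM scaling, and fold changes on the log2 scale. A gene is called where edgeR's quasi-likelihood test, with batch and strain as terms, gave a Benjamini-Hochberg adjusted p (FDR) below 0.05 over all 4625 genes. The labels name the 4 cultures of a strain as replicates in batches and say nothing more of their origin, so p-values measure the spread between these samples. All 3 strain comparisons use the same 4 *wt* cultures.

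In *wt* the members were well expressed. Per length of coding sequence, the median member had 143 TPM (counts per length, scaled to the same total in each library) for mRNA and 128 TPM for footprints, against medians of 47.3 and 33.6 TPM over 4617 tested genes with a coding sequence in the annotation. ILV5, acetohydroxyacid reductoisomerase of the isoleucine and valine pathway, had the highest level, 1061 ± 42.7 TPM in RNA-Seq (SD, n = 4) and 2000.3 ± 142 TPM in Ribo-Seq. HIS1, ATP phosphoribosyltransferase and the first step of histidine synthesis, was next in RNA-Seq at 591 ± 28.1 TPM. HOM6, homoserine dehydrogenase, was next in Ribo-Seq at 543 ± 45.7 TPM. ILV5 stood apart from both by more than the spread between cultures. At the low end in RNA-Seq were PHA2, prephenate dehydratase of phenylalanine synthesis, at 27.5 ± 2.42 TPM and TYR1, prephenate dehydrogenase of tyrosine synthesis, at 34.7 ± 1.49 TPM. In Ribo-Seq they were SER3 at 8.80 ± 0.971 TPM and LYS4, homoaconitase, at 18.8 ± 4.29 TPM. HIS1 showed how far the 2 assays can differ in 1 gene, ranking 2 of 45 in RNA-Seq and 14 of 45 in Ribo-Seq.

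The ratio of Ribo-Seq to RNA-Seq CPM in each *wt* culture, called ribosome occupancy (RO) here, had a median of -0.20 on the log2 scale over the members and -0.50 over all genes tested. It was above 0 in 15 of 45 members, 33.3%, against 21.2% of all genes. TRP5, tryptophan synthase, was highest at 0.96 ± 0.13 (log2, SD, n = 4), with 1.01, 0.79, 0.97 and 1.09 in its 4 cultures, and ILV5 was next at 0.84 ± 0.17. SER3, 1 of 2 phosphoglycerate dehydrogenases, was lowest at -2.15 ± 0.11, and TRP1, phosphoribosylanthranilate isomerase, was next at -1.47 ± 0.37. Among the pathway groups, 4 of 5 homoserine and threonine enzymes were above 0, and the other, THR1, homoserine kinase, was at -0.47 ± 0.084. Enzymes of 1 pathway did not share a level of RO: in tryptophan synthesis TRP5 was the highest of the 45 members and TRP1 the second lowest.

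**Figure D1:**
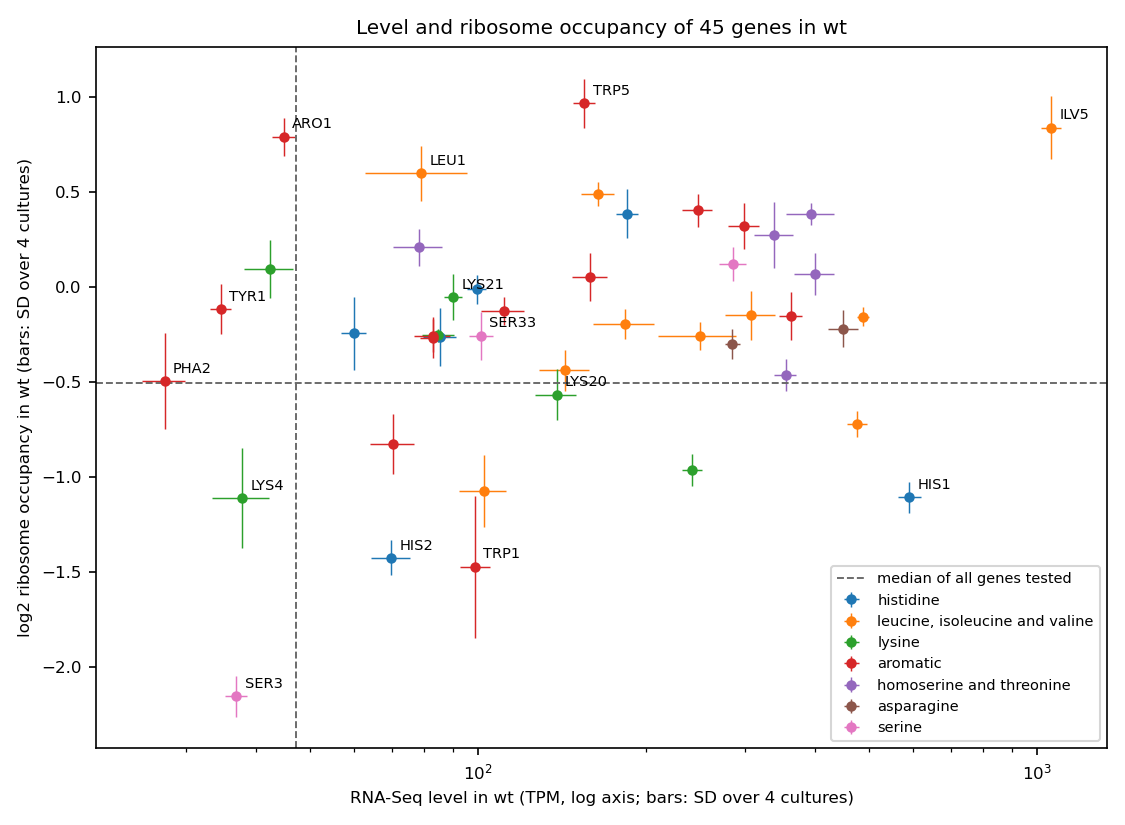
Level and ribosome occupancy of the 45 members in *wt*. The x axis is RNA-Seq TPM on a log axis, the y axis the log2 ratio of Ribo-Seq to RNA-Seq CPM, points are means and bars SD over 4 cultures, colours are pathways and the dashed lines are the medians of all genes tested. ILV5 lies at the right, SER3 at the bottom left and TRP5 at the top.

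Pairs of enzymes for the same reaction were unequal in *wt*. Of the 2 phosphoglycerate dehydrogenases, which start serine synthesis, SER33 had 101 ± 5.04 TPM for mRNA and 89.3 ± 3.31 TPM for footprints, and SER3 had 37.0 ± 1.70 and 8.80 ± 0.971 TPM. LEU4 and LEU9, both α-isopropylmalate synthases, had 183 ± 23.0 and 102 ± 9.73 TPM in RNA-Seq, with an RO of -0.20 ± 0.078 and -1.08 ± 0.19. BAT2, the cytosolic branched-chain aminotransferase, had 488 ± 12.7 TPM and BAT1, the mitochondrial one, 308 ± 31.1 TPM in RNA-Seq. ASN2 and ASN1, both asparagine synthetases, had 450.0 ± 27.5 and 285 ± 8.86 TPM. ARO4 had 393 ± 21.4 TPM and ARO3 107 ± 7.91 TPM in Ribo-Seq. They are the DAHP synthases at the start of aromatic synthesis, ARO4 inhibited by tyrosine and ARO3 by phenylalanine. LYS20 had 138 ± 11.5 TPM and LYS21 90.2 ± 3.46 TPM in RNA-Seq. Both are homocitrate synthases, their coding sequences are identical in 88.1% of aligned bases, and 48.6% and 47.2% of their 28-base words occur in another coding sequence. Reads that map to both are left out of the counts, so the levels of LYS20 and LYS21 are uncertain. For the other pairs the share of such words was at most 5.35%.

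The 3 deletions differed in how many members were called. In *tma46Δ* none of the 45 members passed the test in RNA-Seq (background 0.0216% of genes), in Ribo-Seq (0.0216%) or in RO (0.0%). In *eif2aΔ* 2 members passed in RNA-Seq, against 0.454% of all genes, 2 in Ribo-Seq, against 1.84%, and none in RO, against 0.0432%. Without *eif2aΔ* replicate 1, 5 passed in Ribo-Seq, against 2.77%: LYS20, higher, and ARO3, ILV3, LEU9 and LYS4, lower. In *stm1Δ* none passed in RNA-Seq, against 0.0649% of all genes, 2 passed in Ribo-Seq, both lower, against 0.411% called in either direction, and none passed in RO, against 0.0%. Beside these counts of 0 from edgeR, an unadjusted p under 0.05 was reached by 2 members in *tma46Δ* RNA-Seq (1.62% of all genes), 1 in Ribo-Seq (3.68%) and 0 in RO (1.3%). It was reached by 0 members in *eif2aΔ* RO (3.2% of all genes) and 0 in *stm1Δ* RO (5.41%), but in *stm1Δ* RNA-Seq by 23 members, all lower, against 12.8% of all genes. DESeq2 called 0 members in *tma46Δ* in each measure, 0 in *eif2aΔ* and *stm1Δ* RO, and 8 in *stm1Δ* RNA-Seq, all lower, where it called 4.65% of all genes: HIS1, ILV2, ILV3, ILV5, LYS4, ARO3, ARO4 and THR4. DESeq2 also called 4 members in *stm1Δ* Ribo-Seq, against 0.757% of all genes, namely ILV2, ILV3, BAT1 and ARO4. In *eif2aΔ* it called 3 in RNA-Seq, LYS20, ARO3 and ILV3, against 1.1% of all genes, and 2 in Ribo-Seq, LYS20 and ILV3, against 1.25%. In a fit of the *tma46Δ* and *wt* libraries alone, edgeR called 3 members in *tma46Δ* Ribo-Seq, against 1.64% of all genes: ILV3 at -0.18, LEU4 at -0.18 and ASN1 at 0.14.

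The *stm1Δ* values lay to one side. In RNA-Seq 40 of the 45 members had a log2 fold change below 0, with a median of -0.45, against 49.5% of all genes and a median of 0.01. In Ribo-Seq 40 of 45 were below 0 as well, with a median of -0.38, against 48.8% of all genes and a median of 0.01. The member medians were nearer 0 with no batch term, at -0.27 and -0.25, with 39 and 40 below 0. The members took between 1.33% and 1.42% of the RNA-Seq counts in *stm1Δ* and between 1.49% and 1.59% in *wt*. Of the Ribo-Seq counts they took between 1.35% and 1.48% in *stm1Δ* and between 1.59% and 1.66% in *wt*, with no overlap in either assay. Low shares also occurred in batch 5, which has no *wt* culture. There *eif2aΔ* replicate 3 was at 1.38% in RNA-Seq, within the *stm1Δ* range, and at 1.54% in Ribo-Seq. In the same batch *tma46Δ* replicate 4 was at 1.44% and 1.49%, and all 4 of these values lay below every *wt* library. So did *tma46Δ* replicate 1, at 1.45% in RNA-Seq and 1.57% in Ribo-Seq, which shares batch 1 with *wt* replicate 1. All 4 *stm1Δ* cultures lay below all 4 *wt* cultures for 25 members in RNA-Seq, against 8.89% of all genes, and for 19 in Ribo-Seq, against 7.31%. No member lay above in either assay, against 6.98% and 6.36%. For 13 members this held in both assays, against 3.26% of all genes: HIS1, HIS7, ILV2, BAT1, LYS9, LYS21, TRP2, ARO4, ARO8, HOM2, HOM3, THR4 and SER33. In bulk samples, a lower level in every cell and a lower level in part of the cells cannot be told apart.

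Because *stm1Δ* and *wt* shared no batch, their difference and that between batches cannot be told apart from those 2 strains alone. The fit with batch as a term reaches *wt* only through the *stm1Δ* and *eif2aΔ* cultures of their shared batch. The batch of *stm1Δ* replicates 2, 3 and 4 holds no other strain, so its term takes up their level. Each *stm1Δ* estimate of that fit therefore rests on replicate 1 against *eif2aΔ* replicate 4, joined to the *eif2aΔ* estimate. Replicates 2 to 4 enter only its SE and FDR. In the batch they share, *stm1Δ* replicate 1 over *eif2aΔ* replicate 4 gave a median log2 ratio of -0.44 in RNA-Seq, with 42 of 45 members below 0 against 49.4% of all genes. In Ribo-Seq it was -0.32, with 39 of 45 below 0 against 48.8%. The fit rests on this same pair, so the ratios are no separate check. In *eif2aΔ* replicate 4 the members took 1.58% of the RNA-Seq counts, within the *wt* range. Of its Ribo-Seq counts they took 1.72%, above every *wt* library. With no batch term, 20 members were called lower in RNA-Seq, against 6.34% of all genes, and 12 in Ribo-Seq, against 3.07%. None was called higher in either assay. In both assays these were ILV2, BAT1, LYS21, TRP2, ARO4, ARO8, HOM2, HOM6 and THR4. In RNA-Seq they also were HIS1, HIS4, HIS7, LYS1, TRP5, ARO3, ARO7, HOM3, ASN1, SER1 and SER33, and in Ribo-Seq LEU4, THR1 and SER3. Left without *stm1Δ* replicate 2, the fit with batch as a term called 21 members lower in RNA-Seq, against 8.61% of all genes. In Ribo-Seq it called 8 lower, against 1.97%. That fit rests on the same *stm1Δ* replicate 1, so it is no separate check. ILV2 in Ribo-Seq, for one, was at -0.75 with SE 0.13 there and at -0.75 with SE 0.15 with all cultures. The study corrects batches with ComBat-seq, and on counts corrected in that way 39 members were called in RNA-Seq, 38 of them lower, and 38 in Ribo-Seq, 35 of them lower. Of all genes, 68.1% and 55.4% were called there.

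**Figure D2:**
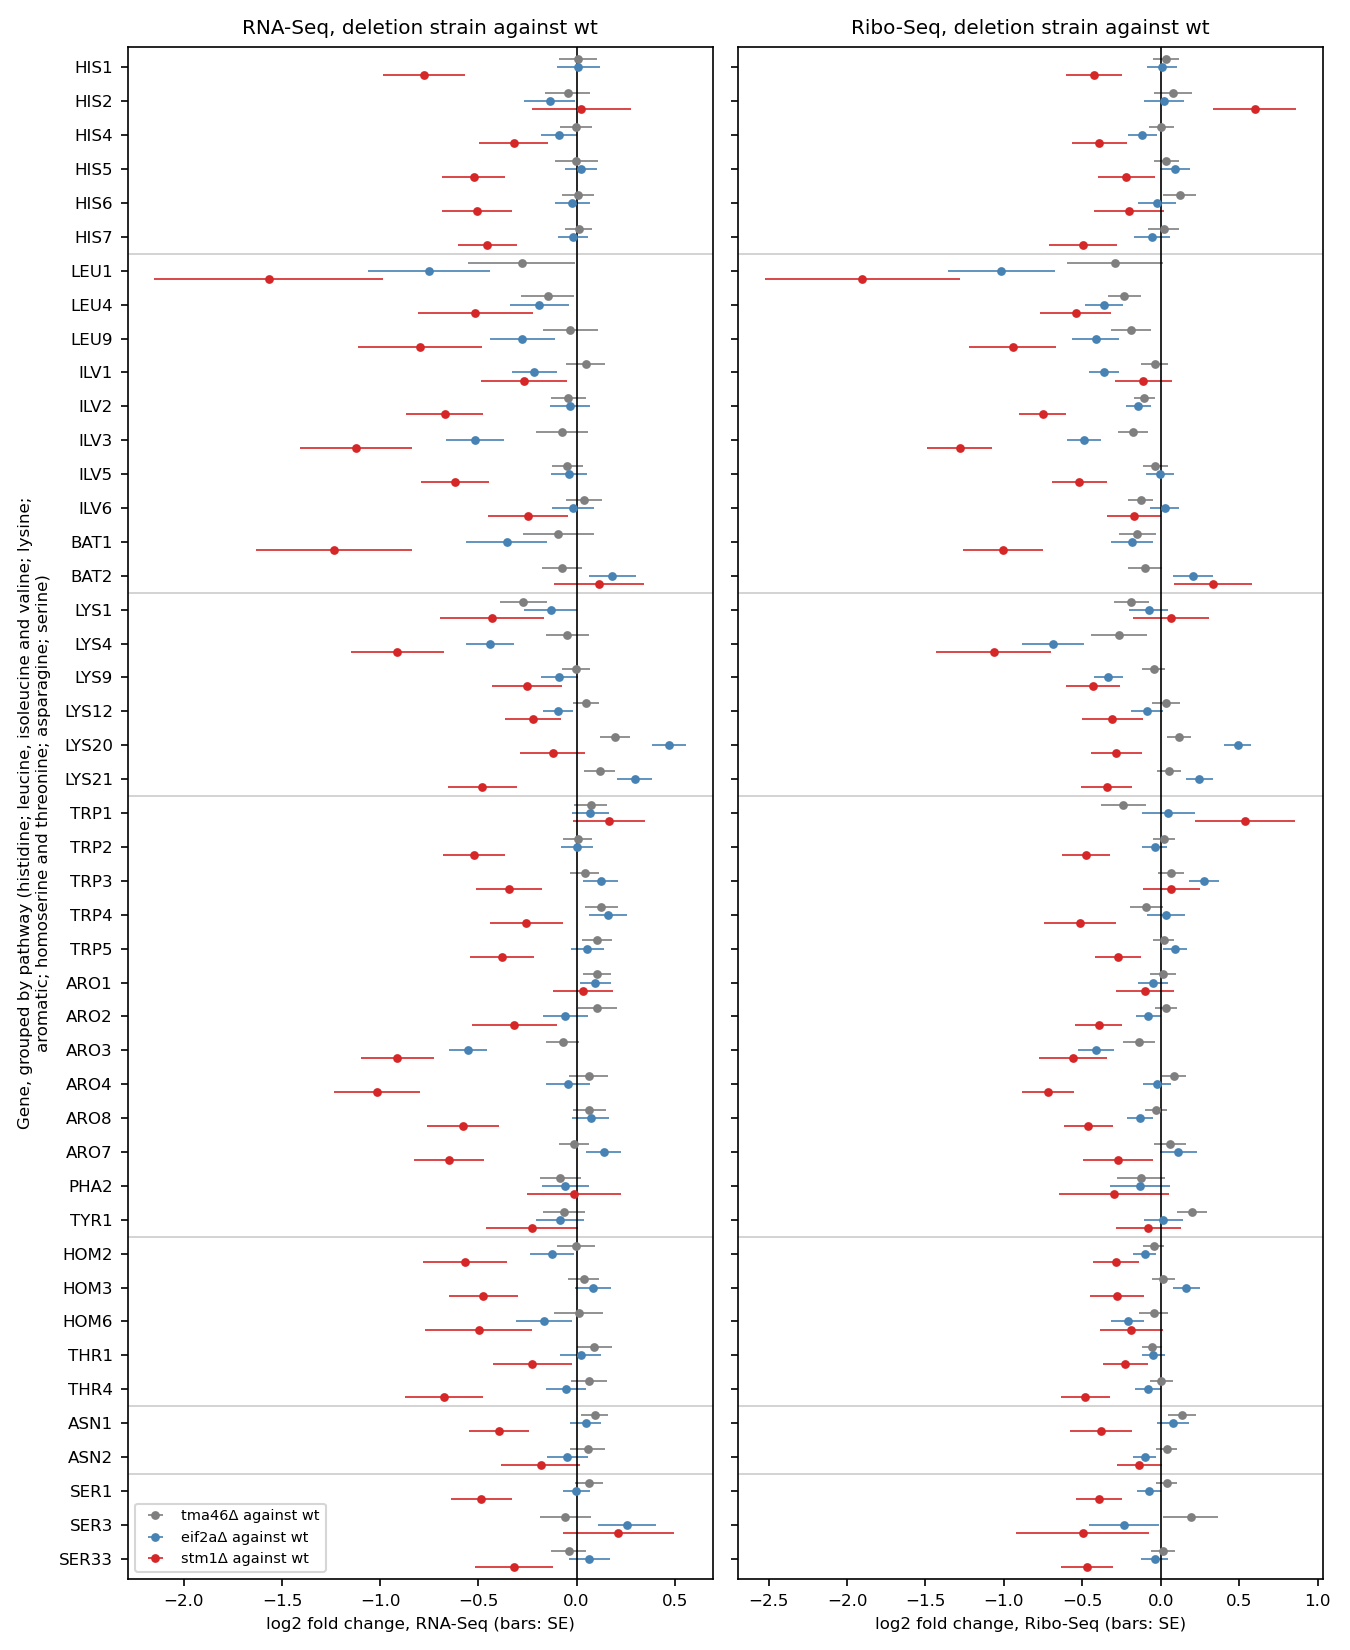
Log2 fold changes of the 45 members in each deletion strain against *wt*, in RNA-Seq and Ribo-Seq. Genes run down the y axis by pathway, the x axis is the log2 fold change, points are estimates of the fit with batch as a term and bars are standard errors, with *tma46Δ* grey, *eif2aΔ* blue and *stm1Δ* red. Most red points lie below 0, 40 of 45 in each assay, and the blue RNA-Seq points farthest from 0 are LEU1, ARO3, ILV3, LYS20 and LYS4.

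Leucine, isoleucine and valine are made by pathways that share several enzymes, and this group had the lowest *stm1Δ* median of the 7 groups in both assays, at -0.65 for mRNA and -0.65 for footprints over its 10 genes (log2 fold change). ILV2 (YMR108W, chrXIII:484084-486147, plus strand), the catalytic subunit of acetolactate synthase and the first enzyme common to valine and isoleucine, fell in *stm1Δ* Ribo-Seq. Its Ribo-Seq level was 407, 399, 434 and 390.2 CPM in *stm1Δ*, against 566, 608, 609 and 622 CPM in *wt*. Every *stm1Δ* culture lay below every *wt* culture. The fit with batch as a term, whose estimate rests on *stm1Δ* replicate 1, gave -0.75 on the log2 scale (SE 0.15, edgeR FDR 0.0444). The call was close to the threshold: it was lost by edgeR without *wt* replicate 1 (FDR 0.108), 2 (0.108), 3 (0.0968) or 4 (0.149) or *stm1Δ* replicate 3 (0.0564), while with no batch term ILV2 was at -0.56 (FDR 0.000296). In RNA-Seq ILV2 had 317, 348, 296 and 276 CPM in *stm1Δ* and 399, 455, 442 and 419 CPM in *wt*, again with no overlap, at -0.67 and FDR 0.0939 by edgeR. ILV6, the regulatory subunit of the same enzyme, was not called, at -0.25 for mRNA and -0.17 for footprints.

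ILV3 (YJR016C, chrX:464451-466208, minus strand), dihydroxyacid dehydratase, is an iron-sulphur enzyme of the same pathway. With batch in the fit it was called lower in Ribo-Seq in 2 of the deletion strains. In *stm1Δ* it had 362, 276, 248 and 299 CPM, in *eif2aΔ* 447, 335, 250.2 and 626 CPM and in *wt* 344, 492, 500.4 and 526 CPM. The groups overlapped: *stm1Δ* replicate 1 was above the lowest *wt* culture, and *eif2aΔ* replicate 4 was the highest of all. The fit gave -1.28 for *stm1Δ* (SE 0.21, edgeR FDR 0.0198) and -0.49 for *eif2aΔ* (SE 0.11, FDR 0.0387). *eif2aΔ* replicate 4 has no weight in the *eif2aΔ* estimate, which was -0.49 without it as well. The *stm1Δ* estimate sets *stm1Δ* replicate 1, at 362 CPM, against that same *eif2aΔ* culture, at 626 CPM. The *stm1Δ* estimate thus depends on this 1 culture, and the *eif2aΔ* estimate of that fit does not. With no batch term the edgeR estimates were -0.65 for *stm1Δ* (FDR 0.0922) and -0.16 for *eif2aΔ* (FDR 0.799), and neither call remained. Whether this culture accounts for these shifts was not tested. The *stm1Δ* call was also lost without *wt* replicate 2 (FDR 0.0611) or 4 (FDR 0.0781), and the *eif2aΔ* call without *wt* replicate 1 (FDR 0.106), 2 (0.101) or 4 (0.414) or *eif2aΔ* replicate 2 (0.415) or 3 (0.128), all by edgeR. In *eif2aΔ* RNA-Seq it was -0.52 (SE 0.15) and in *stm1Δ* RNA-Seq -1.12 (SE 0.28), neither called by edgeR, while DESeq2 called both (adjusted p 0.0452 and 0.00841). ILV3 RNA-Seq was at 428, 608, 601 and 586 CPM in the *wt* cultures, of which replicate 1 lay apart from the other 3.

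LEU1 (YGL009C, chrVII:476313-478652, minus strand), isopropylmalate isomerase and also an iron-sulphur enzyme, had the lowest fold change of any member in RNA-Seq and in Ribo-Seq in all 3 strains, and was called in none of them by the fit with all cultures. Its RNA-Seq level was 127, 213, 285 and 116 CPM in *tma46Δ*, 218, 108, 84.2 and 301 CPM in *eif2aΔ*, 171, 123, 50.8 and 37.5 CPM in *stm1Δ* and 172, 257, 275 and 233 CPM in *wt*. Over the 16 cultures it ran between 37.5 and 301 CPM, a ratio of 8.03, and in Ribo-Seq between 45.4 and 506 CPM, a ratio of 11.1. High and low cultures occurred in *tma46Δ* and *eif2aΔ*. In RNA-Seq all 4 *stm1Δ* cultures lay below every *wt* culture, against 8.89% of all genes, though narrowly, at 171 beside 172 CPM. There *stm1Δ* replicates 3 and 4 were the lowest of the 16 cultures. Without *stm1Δ* replicate 2, edgeR called LEU1 in *stm1Δ* in both assays (FDR 0.00966 and 0.0028), with estimates that still rest on replicate 1. With all cultures the estimates were -1.57 (SE 0.58) and -1.90 (SE 0.62) in *stm1Δ*, -0.75 (SE 0.31) and -1.02 (SE 0.34) in *eif2aΔ* and -0.28 and -0.29 in *tma46Δ*, RNA-Seq first. LEU4 stood at -0.51 and -0.54 in *stm1Δ*, and LEU9 stood at -0.80 and -0.94, none called. In *tma46Δ* LEU4 was among the 3 lowest in RNA-Seq at -0.15.

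BAT1 (YHR208W) and BAT2 (YJR148W) differed. BAT1 had 285, 302, 173 and 143 CPM in *stm1Δ* RNA-Seq and 436, 496, 494 and 419 CPM in *wt*, with no overlap, and an estimate of -1.23 (SE 0.40) that was not called with batch in the fit and was called by edgeR with no batch term (-1.03, FDR 0.0281). In Ribo-Seq it had 274, 229, 172 and 153 CPM in *stm1Δ* and 385, 424, 419 and 431 CPM in *wt*, also without overlap. There it was not called with batch in the fit by edgeR, and was called by DESeq2 (adjusted p 0.0147) and by edgeR with no batch term (-0.99, FDR 0.00527). BAT2 had 597, 715, 765 and 779.6 CPM in *stm1Δ* and 679, 716, 673 and 732 CPM in *wt*, and its estimates were 0.11 for mRNA and 0.33 for footprints, among the highest of the 45 members. ILV5 was at -0.62 and -0.52, and ILV1, threonine deaminase and the first step specific to isoleucine, at -0.27 and -0.11. Without the batch term BAT2 was at 0.03 and 0.05, ILV1 at 0.00 and 0.01 and ILV5 at -0.23 and -0.04. In *eif2aΔ* 9 of the 10 genes were below 0 in RNA-Seq, with a median of -0.20, and 8 in Ribo-Seq, with a median of -0.27, which was -0.15 with no batch term. In *tma46Δ* the median was -0.14 in Ribo-Seq with 10 of 10 below 0, and -0.06 in RNA-Seq with 8 of 10 below 0, and none of the 10 was called in *tma46Δ*.

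Lysine had the only member called higher in any comparison with batch in the fit of all libraries, LYS20 (YDL182W, chrIV:133437-134723, plus strand). Other fits called further members higher, among them LYS21 in *eif2aΔ* and ASN1 in *tma46Δ*, both in Ribo-Seq. LYS20 had 299, 314, 275 and 299 CPM in *eif2aΔ* RNA-Seq, against 251, 225, 217 and 208 CPM in *wt*. In Ribo-Seq it had 198, 215, 237 and 233 CPM in *eif2aΔ*, against 168, 139, 142 and 159 CPM in *wt*. All *eif2aΔ* cultures lay above all *wt* cultures in both assays. The fit gave 0.47 in RNA-Seq (SE 0.086, edgeR FDR 0.0286) and 0.49 in Ribo-Seq (SE 0.086, FDR 0.00875). Within the batches that *eif2aΔ* and *wt* share, the log2 ratios were 0.46 and 0.60 for mRNA and 0.47 and 0.43 for footprints, for *eif2aΔ* replicate 1 over *wt* replicate 3 and *eif2aΔ* replicate 2 over *wt* replicate 4. The RNA-Seq call was lost by edgeR without any 1 of the *wt* cultures or without *eif2aΔ* replicate 1 or 2, with FDR between 0.064 (without *wt* replicate 1) and 0.315 (without *wt* replicate 4) and estimates between 0.40 and 0.52 over all 8 such fits. The Ribo-Seq call was lost without *wt* replicate 4 (FDR 0.122) or *eif2aΔ* replicate 2 (FDR 0.119), with estimates between 0.46 and 0.53.

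LYS21 (YDL131W), the paralog, had 188, 179, 182 and 173 CPM in *eif2aΔ* RNA-Seq and 149, 158, 151 and 147 CPM in *wt*. These did not overlap either, and the estimate of 0.30 (SE 0.089, edgeR FDR 0.151) was not called. In Ribo-Seq it was 0.25 (FDR 0.17), also not called by edgeR and also with no overlap, but called with no batch term (0.29, FDR 0.0433). In *stm1Δ* LYS21 had 101, 132, 125 and 108 CPM, below every *wt* culture, at -0.48, not called, and at -0.38 with no batch term (edgeR FDR 0.014). LYS20 was at -0.12, and at 0.01 with no batch term. LYS4, homoaconitase, was at -1.06 (SE 0.37) in *stm1Δ* Ribo-Seq, -0.68 (SE 0.20) in *eif2aΔ* and -0.27 in *tma46Δ*, among the 3 lowest members in each, and none of these was called. It had 34.2, 33.4, 22.8 and 33.9 CPM in *stm1Δ* and 33.5, 46.3, 47.5 and 60.5 CPM in *wt*, with overlap. LYS12, homoisocitrate dehydrogenase, was the single member whose *eif2aΔ* cultures all lay below *wt* in RNA-Seq (background 3.52% of genes), at -0.09. LYS9 and LYS1, the 2 saccharopine dehydrogenases, were at -0.25 and -0.43 in *stm1Δ* RNA-Seq. LYS1 had the second lowest value in *tma46Δ* RNA-Seq, at -0.27 (SE 0.12), without a call. Its Ribo-Seq level was 52.3, 59.9, 60.8 and 57.7 CPM in *tma46Δ* and 60.9, 64.5, 63.1 and 68.2 CPM in *wt*.

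In *eif2aΔ* RNA-Seq, 3 members lay above *wt* in all cultures, against 3.24% of genes: LYS20, LYS21 and SER3. In Ribo-Seq there were 4 above, against 4.26%: LYS20, LYS21, TRP5 and HOM3. Another 4 lay below, against 5.45%: ILV1, LYS9, ARO8 and HOM2. As shares of the 45 members these counts are 6.67%, 8.89% and 8.89%. In *tma46Δ* no member separated from *wt* in RNA-Seq, against 0.951% of genes below and 0.973% above, and in Ribo-Seq LYS1 alone lay below, against 1.62% of genes, with none above, against 1.23%.

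**Figure D3:**
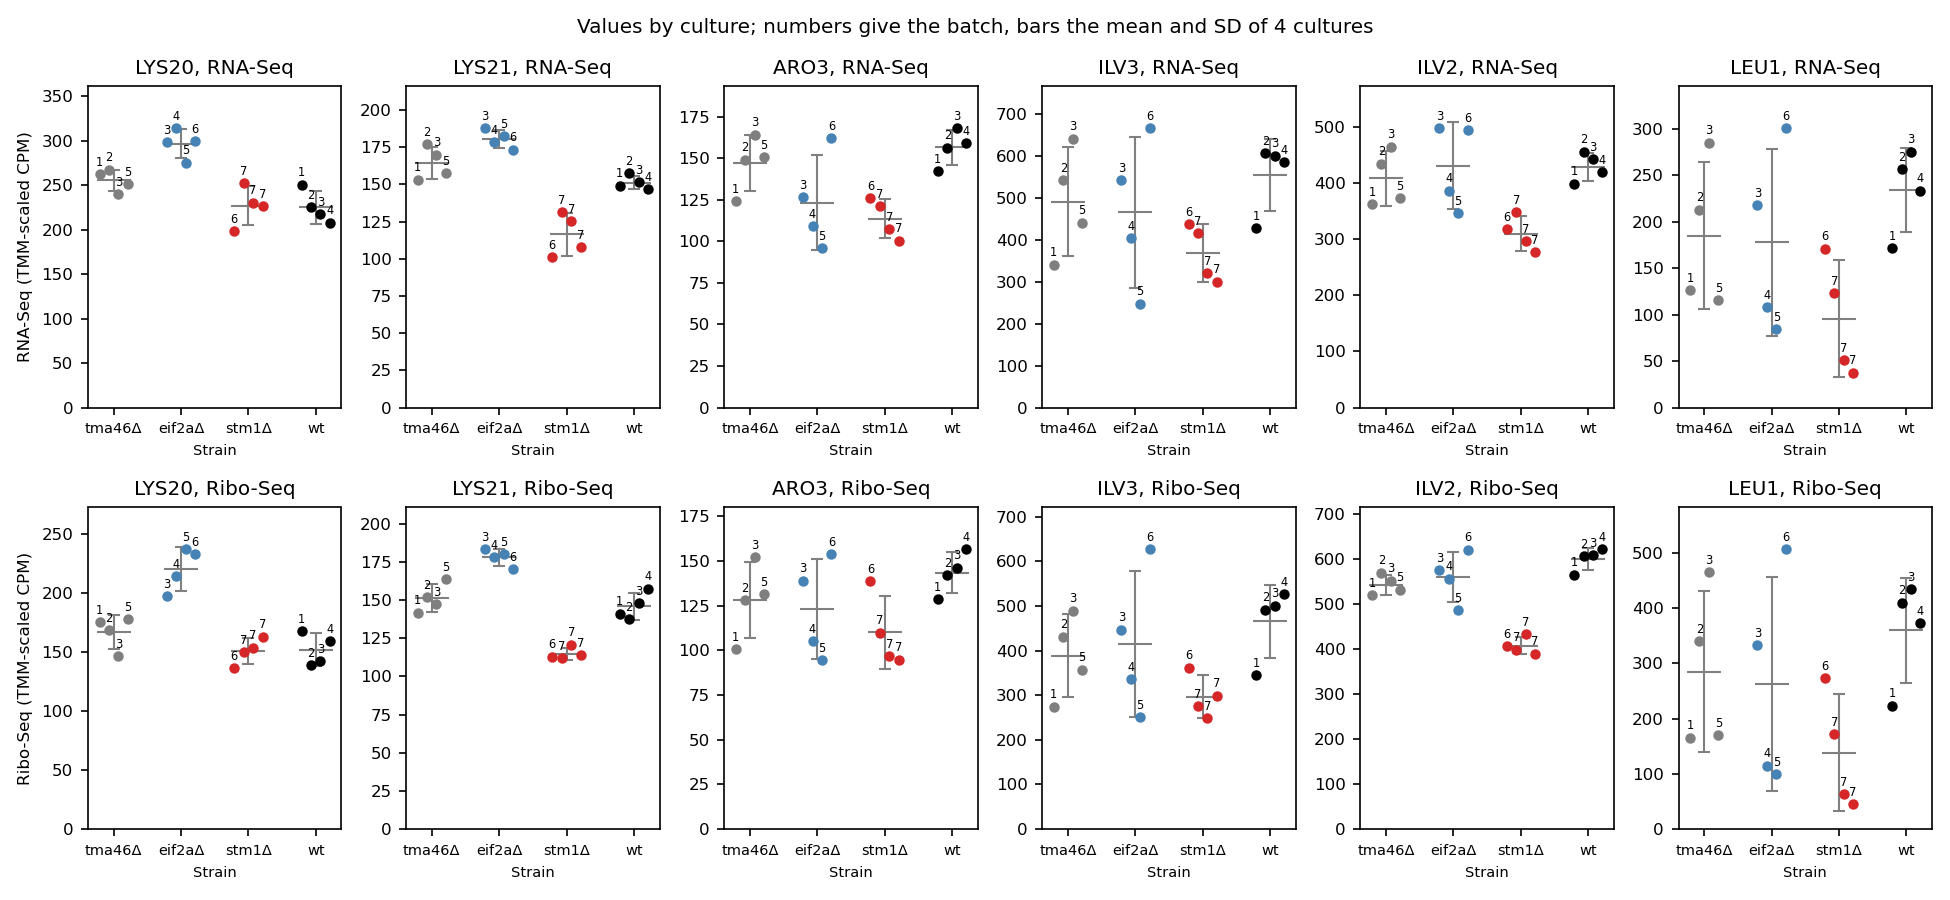
CPM of LYS20, LYS21, ARO3, ILV3, ILV2 and LEU1 in each culture. RNA-Seq is in the top row and Ribo-Seq in the bottom row, strains run *tma46Δ*, *eif2aΔ*, *stm1Δ* and *wt* from left to right, each point is a culture with its batch number, and bars give mean and SD of 4 cultures. LYS20 separates *eif2aΔ* from *wt* in both rows, ILV2 separates *stm1Δ* from *wt* in both rows, and LEU1 spreads within every strain.

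Aromatic amino acid synthesis had 1 member called lower in *eif2aΔ* with batch in the fit of all libraries. ARO3 (YDR035W, chrIV:521816-522928, plus strand), the DAHP synthase inhibited by phenylalanine, had 126, 109, 95.7 and 162 CPM in *eif2aΔ* RNA-Seq and 142, 156, 168 and 159 CPM in *wt*. The groups overlapped, *eif2aΔ* replicate 4 lying within the *wt* range. The fit gave -0.55 (SE 0.097, edgeR FDR 0.0253), and with no batch term -0.34 (FDR 0.29), which is not a call. Of the 8 fits that left out a culture, only those without *eif2aΔ* replicate 1 (FDR 0.0495) or 4 (FDR 0.0255) kept the edgeR call. The others gave FDR between 0.0522 (without *eif2aΔ* replicate 3) and 0.274 (without *eif2aΔ* replicate 2). Replicate 4 shares its batch with *stm1Δ* replicate 1 alone and so has no weight in the *eif2aΔ* estimate. That estimate was -0.55 without replicate 4 as well, so the call kept there is no check. In the shared batches the log2 ratios of *eif2aΔ* over *wt* were -0.41 and -0.55. ARO4, its isozyme, was near 0 in *eif2aΔ*, at -0.05 in RNA-Seq. The difference between ARO3 and ARO4 was not tested.

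In *stm1Δ* ARO4 had 271, 327, 265 and 249.7 CPM in RNA-Seq and 436, 444, 419 and 386 CPM in *wt*, with no overlap. Its estimates were -1.02 in RNA-Seq (FDR 0.0683) and -0.72 in Ribo-Seq (FDR 0.0767) by edgeR, so neither passed with batch in the fit. DESeq2 called ARO4 in both assays (adjusted p 0.00475 and 0.0147), as did edgeR with no batch term, where the estimates were -0.60 (FDR 0.01) and -0.54 (FDR 0.005). ARO3 was at -0.91 and -0.56, called in RNA-Seq by DESeq2 (adjusted p 0.0101) and with no batch term (-0.46, edgeR FDR 0.0384). Of the 13 aromatic genes, 6 were called lower for mRNA with no batch term, against 6.34% of all genes, and 3 for footprints, against 3.07%. Among them ARO8, an aromatic aminotransferase, was at -0.45 (edgeR FDR 0.00736) in RNA-Seq, and lay below *wt* in all cultures of both assays. Further down the pathway, ARO7, chorismate mutase, was at -0.65 and -0.27, and ARO2, chorismate synthase, at -0.32 and -0.40. ARO1, a multifunctional enzyme that carries out several shikimate steps, was near 0, at 0.03 and -0.10. TRP2 and TRP3, the subunits of anthranilate synthase, were at -0.52 and -0.34 in RNA-Seq. TRP4, anthranilate phosphoribosyltransferase, and TRP5 were at -0.26 and -0.38. PHA2 and TYR1 were at -0.02 and -0.23.

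TRP1 was above 0 without a call, at 0.17 for mRNA and 0.54 for footprints, and with no batch term only at 0.09 and 0.04. Its Ribo-Seq values were 34.5, 34.3, 33.9 and 21.0 CPM in *stm1Δ* and 30.1, 35.8, 34.2 and 23.2 CPM in *wt*, which overlapped. The aromatic group was at a median of -0.34 for mRNA and -0.30 for footprints, with 11 of 13 genes below 0 in each. In *tma46Δ* TYR1 had the highest Ribo-Seq value of all members at 0.20, TRP1 the third lowest at -0.24, and TRP4 the second highest RNA-Seq value at 0.13. None of these was called. TRP3 was the second highest in *eif2aΔ* Ribo-Seq at 0.28 (SE 0.096), not called.

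Histidine enzymes stood at a median of -0.48 in *stm1Δ* RNA-Seq and -0.31 in Ribo-Seq, with 5 of 6 below 0 in each, and with no batch term at -0.21 and -0.19, with 6 and 4 of 6 below 0. HIS1 (YER055C) had 514, 570.4, 449 and 453 CPM in RNA-Seq in *stm1Δ* and 636, 676, 646 and 721 CPM in *wt*. These did not overlap, and the estimate of -0.78 had an edgeR FDR of 0.0831, while DESeq2 called HIS1 (adjusted p 0.0177), as did edgeR with no batch term (-0.43, FDR 0.0203). HIS7, imidazoleglycerol-phosphate synthase, was also below *wt* in all cultures of both assays, at -0.45 and -0.49. HIS4, which catalyses several steps, was at -0.32 and -0.39, HIS5, the aminotransferase, at -0.52 and -0.22, and HIS6, the isomerase, at -0.51 and -0.20, its Ribo-Seq value turning to 0.13 with no batch term. HIS2, histidinol-phosphate phosphatase, had 39.1, 36.8, 29.1 and 31.8 CPM in *stm1Δ* Ribo-Seq and 34.5, 33.3, 36.8 and 28.7 CPM in *wt*. The groups overlapped, and its estimate of 0.60 (SE 0.26, edgeR FDR 0.295) was the highest of all members with batch in the fit. With no batch term it was 0.05, below that of HIS6, and without *stm1Δ* replicate 1 as well it was -0.02. In *eif2aΔ* and *tma46Δ* no histidine gene was called, and the medians were -0.02 and 0.00 in RNA-Seq.

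Homoserine and threonine synthesis starts from aspartate with HOM3, aspartate kinase. All 5 of its genes were below 0 in *stm1Δ* in both assays, with medians of -0.50 for mRNA and -0.28 for footprints. All 5 lay below every *wt* culture in Ribo-Seq, against 7.31% of all genes. THR4 (YCR053W), threonine synthase and the last step, had 636, 647, 636 and 543 CPM in *stm1Δ* Ribo-Seq and 819, 739, 840.2 and 804 CPM in *wt*. HOM2, aspartate semialdehyde dehydrogenase, had 482, 444, 454 and 416 CPM and 578, 602, 560.0 and 593 CPM. With batch in the fit THR4 was -0.48 (edgeR FDR 0.177) and HOM2 -0.29 (FDR 0.353), and none of the 5 was called. By edgeR with no batch term 4 of the 5 were called lower in each assay, against 6.34% of all genes for mRNA and 3.07% for footprints. In Ribo-Seq THR4 was at -0.38 (FDR 0.00821) and HOM2 at -0.38 (FDR 0.002) in that fit. In *eif2aΔ* the 5 genes lay between -0.17 for HOM6 and 0.09 for HOM3 in RNA-Seq.

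For asparagine, ASN1 and ASN2 were at -0.40 and -0.18 in *stm1Δ* RNA-Seq. ASN1 had 437, 500.0, 550.4 and 566 CPM in *stm1Δ* and 648, 619, 583 and 635 CPM in *wt*, without overlap, and ASN2 overlapped. In *tma46Δ* Ribo-Seq ASN1 was the third highest member at 0.13. Neither gene was called in any comparison with batch in the fit of all libraries, and with no batch term ASN1 was called in *stm1Δ* RNA-Seq (-0.27, edgeR FDR 0.0315).

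Serine synthesis begins with SER3 and SER33. SER3 (YER081W) was the highest member in *stm1Δ* RNA-Seq at 0.21 and the lowest in *stm1Δ* RO at -0.71 (SE 0.55), and in *eif2aΔ* it was the third highest in RNA-Seq at 0.26 and the lowest in RO at -0.49 (SE 0.29). None of these was called. Its RNA-Seq values were 74.6, 58.5, 90.4 and 91.0 CPM in *stm1Δ*, 72.4, 88.0, 85.5 and 77.0 CPM in *eif2aΔ* and 68.8, 66.3, 59.8 and 69.6 CPM in *wt*. The *eif2aΔ* cultures all lay above *wt*, while 1 of the 4 *stm1Δ* cultures lay below it. SER3 footprints were few, between 7.05 and 21.4 CPM over the 16 cultures. SER33 and SER1, phosphoserine aminotransferase, were at -0.32 and -0.48 in *stm1Δ* RNA-Seq and -0.47 and -0.39 in Ribo-Seq, with SER33 below every *wt* culture in both assays.

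Ribosome occupancy gave no member a call in any strain by edgeR, with or without the batch term, or by DESeq2. On counts corrected with ComBat-seq 15 members were called in *stm1Δ* RO, against 47.4% of all genes: PHA2, SER3 and TRP4, lower, and ARO3, ARO4, ARO7, HIS1, HIS2, HIS5, HIS6, HOM2, HOM6, LYS1, TRP1 and TRP3, higher. The medians over the members were -0.04 in *tma46Δ*, -0.03 in *eif2aΔ* and 0.09 in *stm1Δ*, and over all genes 0.01, 0.01 and 0.07. After SER3, the lowest values in *stm1Δ* were -0.34 for LEU1 and -0.28 for PHA2, and the highest were 0.57 for HIS2, 0.49 for LYS1 and 0.41 for TRP3. With no batch term these values were -0.05, 0.03, 0.14, 0.34 and -0.04 in the same order, so PHA2 and TRP3 turned sign, and 10 of the 45 members did. In *eif2aΔ* LEU1 at -0.27 and LYS9 at -0.25 followed SER3, and BAT1, HIS2 and TRP3 were highest at 0.17, 0.16 and 0.15, of which HIS2 was -0.06 with no batch term. In *tma46Δ* the lowest were -0.31 for TRP1, -0.22 for LYS4 and -0.22 for TRP4, and the highest were 0.26 for TYR1, 0.25 for SER3 and 0.12 for HIS2. In *tma46Δ* RNA-Seq, the highest members were LYS20 at 0.20, TRP4 at 0.13 and LYS21 at 0.12, and in Ribo-Seq TYR1, SER3 at 0.19 and ASN1.

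Some members varied together from culture to culture, across strains. The median coefficient of variation over the 16 cultures was 11.5% for the members in RNA-Seq and 10.9% for all genes, and 12.2% against 12.8% in Ribo-Seq. In the leucine, isoleucine and valine group it was 18.7% for mRNA and 18.3% for footprints, and LEU1 had the highest of any member, 48.8% and 57.3%. The members whose log2 CPM in RNA-Seq followed that of LEU1 most closely over the 16 cultures were BAT1 (Pearson r = 0.97), LEU4 (0.96) and LEU9 (0.93). In Ribo-Seq, also on log2 CPM, they were LEU4 (0.95), LEU9 (0.93) and ARO3 (0.92). Cultures share libraries and batches, so these values describe the data and carry no test. SER3 ran against LEU1 in RNA-Seq with r = -0.68, as did BAT2 in Ribo-Seq with r = -0.64.

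**Figure D4:**
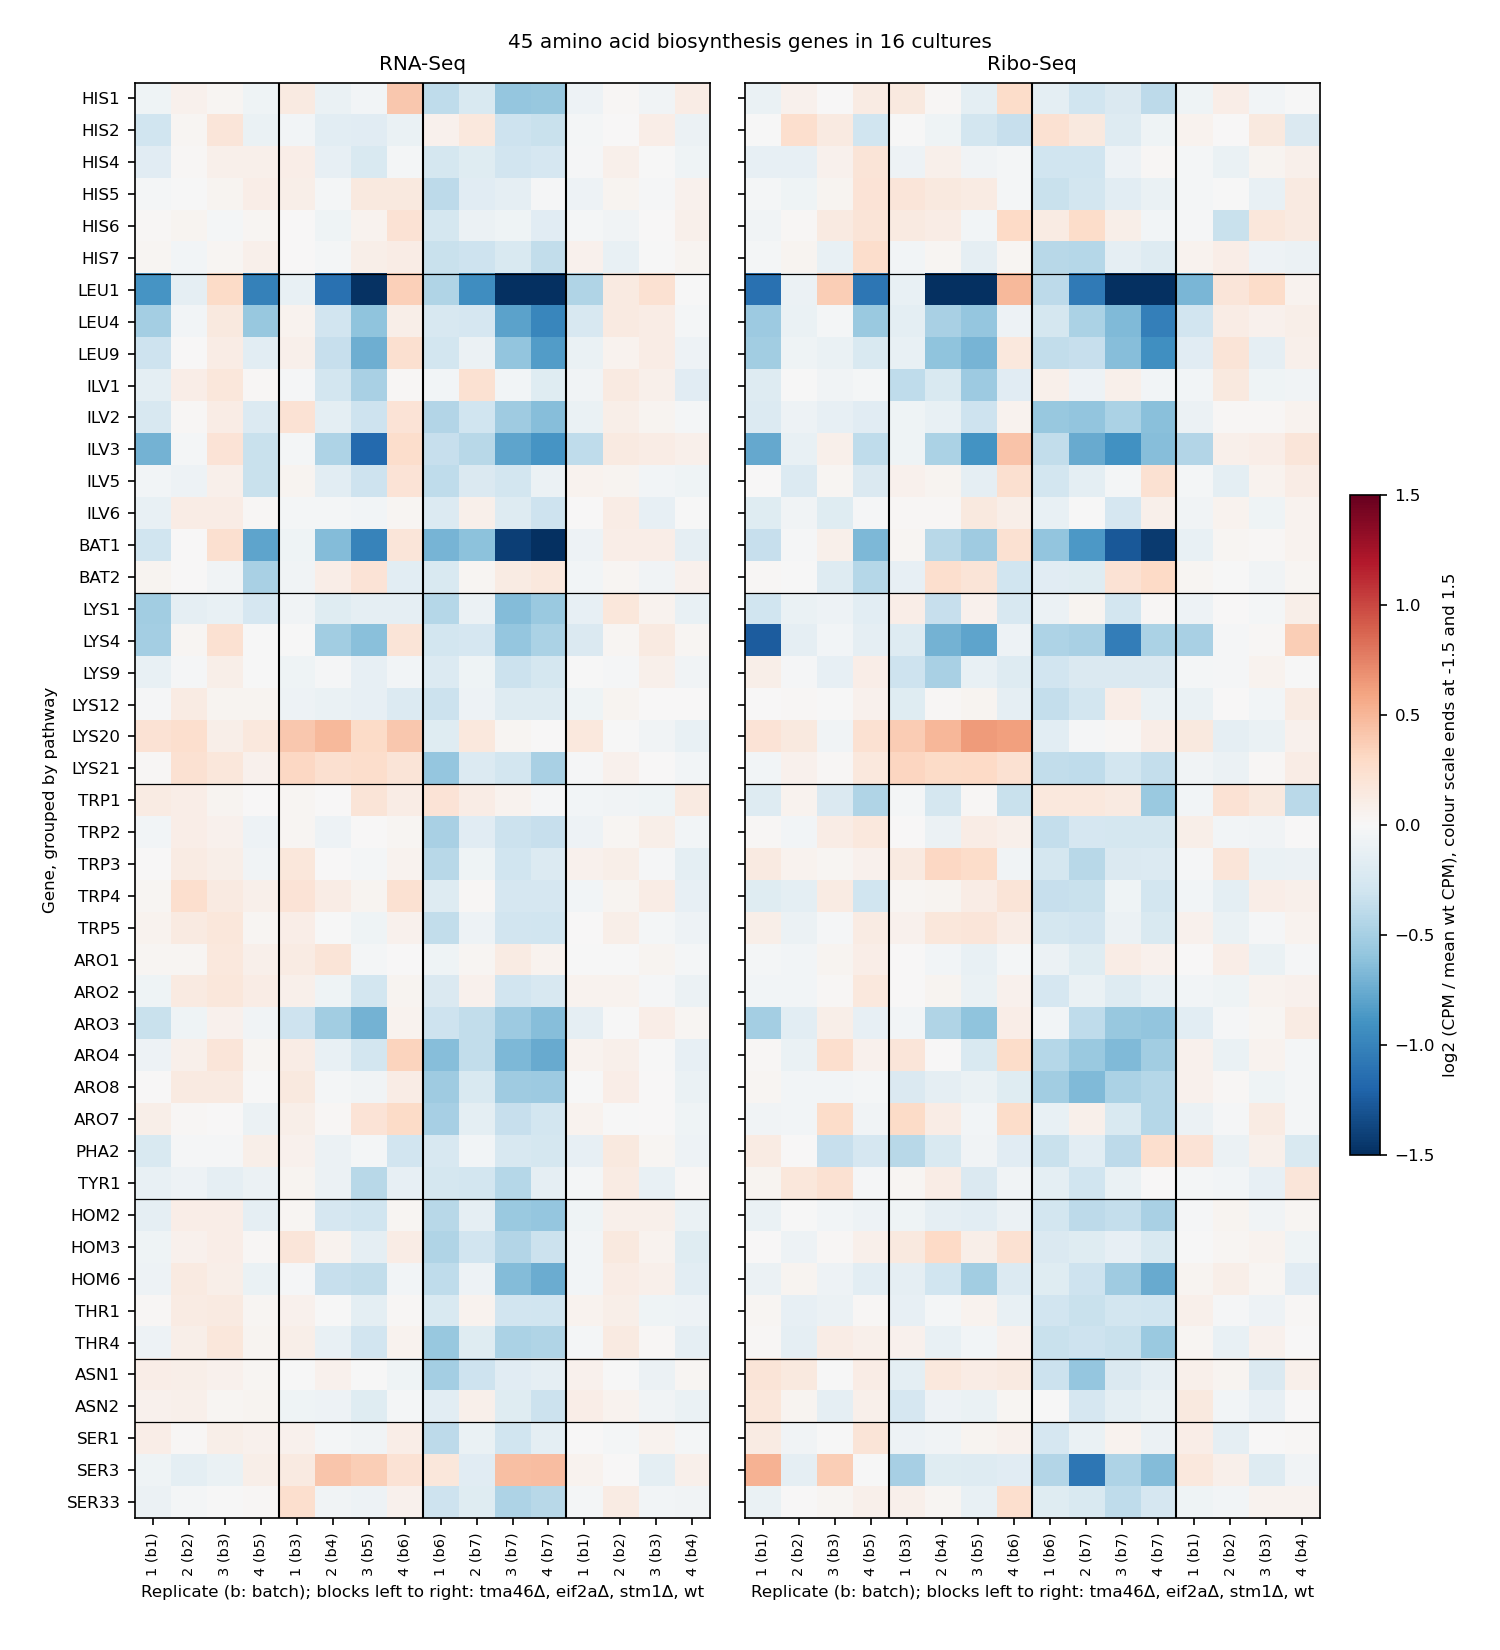
Each member in each culture, in both assays, as the log2 ratio of its CPM to the mean *wt* CPM. Rows are the 45 genes by pathway, columns are the 16 cultures by strain, and the colour scale ends at -1.5 and 1.5. LEU1, BAT1 and LEU4 are low in the same cultures, and the *stm1Δ* columns are low across most rows.

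Members with the Gcn4 motif were set beside those without it, and the difference was not tested. In *stm1Δ* RNA-Seq the median log2 fold change of the 20 genes with TGACTCA was -0.52, with 19 below 0, and the 25 without it -0.32, with 21 below 0. In Ribo-Seq the medians were -0.41 and -0.31. In *eif2aΔ* RNA-Seq they were -0.04 and -0.02.

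The other genes of the lists were mostly not called. Of the 5 further steps of the same pathways, HIS3 and SER2 could be tested and neither was called in any strain. Among other amino acid synthesis genes, 9 of 10 could be tested. GLN1, glutamine synthetase, fell in *eif2aΔ* Ribo-Seq by 0.39 on the log2 scale (edgeR FDR 0.0428), and all 9 were below 0 in *stm1Δ*, with medians of -0.25 for mRNA and -0.33 for footprints and no call. The lowest was GLT1, glutamate synthase, at -1.56 and -2.50, not called. Of the 3 breakdown genes, ARO10, phenylpyruvate decarboxylase, rose in *eif2aΔ* by 0.62 in RNA-Seq (FDR 0.012) and 0.71 in Ribo-Seq (FDR 0.0169), and ARO9, an aromatic aminotransferase used in breakdown, by 0.55 in Ribo-Seq (FDR 0.0231), all by edgeR. None of the 8 regulators GCN4, GCN2, LEU3, LYS14, BAS1, ARO80, CHA4 and GLN3 was called in any comparison. GCN4 itself was at 0.51 in *tma46Δ* Ribo-Seq (SE 0.14), 0.13 in *eif2aΔ* and -0.47 in *stm1Δ*.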

How the data were processed

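The authors trimmed adapters with cutadapt 2.10, used seqkit to take out duplicate reads of the Ribo-Seq libraries alone, set aside rRNA with Bowtie2 1.2.3, and used STAR 2.7.9a with Ensembl R64-1-1 for mapping and counting. The deposited values are raw read counts per gene on the sense strand, and reads mapping to several places are left out (43.4% to 50.8% of reads per Ribo-Seq library, 5.98% to 7.11% per RNA-Seq library).

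From these counts, a gene was kept where 4 or more libraries of each assay reached 10 CPM, and was tested with edgeR 4.0.16 in R 4.3.3 (glmQLFit, glmQLFTest, TMM, batch and strain as terms, 16 libraries per assay), with Benjamini-Hochberg adjustment over 4625 genes. RO was the strain by assay interaction over 32 libraries. ComBat-seq (sva 3.50.0) and DESeq2 1.42.0 were alternatives, since a test on batch-corrected counts does not count the degrees of freedom the correction used. Further fits dropped the batch term, took the replicate number as a block, used RLE factors, 2 other filters or unstranded counts, or left out each culture. TPM used RefSeq coding lengths. Figures were drawn with matplotlib 3.10.9.

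The members and gene lists were chosen with earlier results of these data known. Named in full are the members called in any comparison, the 3 highest and lowest in each comparison, the 2 highest and lowest in level and RO, and both members of paralog pairs.

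Replicate libraries differed by more than sampling noise, with a chi-square per degree of freedom of 2.46 to 26.4, so none was counted as a duplicate. Batches in the labels pair *tma46Δ* and *wt* replicates 1 to 3. Their deviations correlated at 0.67, 0.59 and 0.53 for mRNA and at 0.48, 0.41 and 0.32 for footprints. A pair that shares no batch, *stm1Δ* and *wt* replicate 2, also correlated at 0.52 for mRNA, and at -0.11 for footprints. In simulated counts, where 200 of 4625 genes differed by 1 (log2), the *eif2aΔ* comparison recovered 99.0% of them for mRNA and 94.5% for footprints, and with a difference of 0.5 it recovered 62.5% and 56.5%. For RO it recovered 90% at 1 and 5% at 0.5.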

Additional observations from a re-analysis of the deposited data

Results flagged for a closer look

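In groups of 4 cultures a value was singled out when its gap to the nearest other culture passed Dixon's critical value for 4 samples, as a share of the group's range, which chance does in about 1 of 20 groups. This happened in 3 of the 48 groups examined, and in 17 of 360 over all members in both assays. ILV3 in *wt* RNA-Seq gave 0.874, with replicate 1 at 428 CPM and the nearest culture at 586 CPM. The total RNA-Seq counts of *eif2aΔ* gave 0.849, with replicate 1 at 5567240 and the nearest at 4708903. The total Ribo-Seq counts of *stm1Δ* gave 0.928, with replicate 4 at 1457024 and the nearest at 3155467.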

How the results depend on the processing

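The counts of members called by edgeR in *tma46Δ* were 0 in RNA-Seq and RO under every alternative run, while Ribo-Seq gave 3 in the fit of the *tma46Δ* and *wt* libraries alone. In *eif2aΔ* RNA-Seq the count of 2 became 1 with no batch term, 1 with the replicate block, 3 with DESeq2 (1.1% of all genes) and 6 with ComBat-seq, and in Ribo-Seq the count of 2 became 1 with the replicate block and 13 with ComBat-seq. In *stm1Δ* RNA-Seq the count of 0 became 20 with no batch term, 16 with the replicate block, 3 with no filter, 39 with ComBat-seq, 8 with DESeq2 and 14 with no batch term and without *stm1Δ* replicate 1, the last chosen after seeing the data. In *stm1Δ* Ribo-Seq the count of 2 became 12, 10, 1, 38, 4 and 16 in the same order, and in *stm1Δ* RO the count of 0 became 15 with ComBat-seq. Leaving out 1 culture gave 0 to 2 members in *eif2aΔ* RNA-Seq, 0 to 5 in *eif2aΔ* Ribo-Seq, 0 to 21 in *stm1Δ* RNA-Seq and 0 to 8 in *stm1Δ* Ribo-Seq. The share of all genes called in *stm1Δ* RNA-Seq was 9.66% with no batch term, 5.43% with the replicate block, 1.32% with no filter, 68.1% with ComBat-seq, 4.65% with DESeq2 and 6.96% with no batch term and without replicate 1, and in *stm1Δ* Ribo-Seq it was 4.76%, 3.39%, 0.247%, 55.4%, 0.757% and 7.52%. In *eif2aΔ* it was 0.324% with no batch term, 0.432% with the replicate block and 20.7% with ComBat-seq for RNA-Seq, and 0.908% with the replicate block and 17.8% with ComBat-seq for Ribo-Seq. In *stm1Δ* RO it was 47.4% with ComBat-seq. The cause of these shifts was not tested. The replicate numbers pair only *tma46Δ* and *wt* replicates 1 to 3, where the block changed no count. With the number 4 the correlation was 0.065 in RNA-Seq.

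Among the called and the 3 highest and lowest members of each comparison, reversed estimates were HIS2 in *eif2aΔ* RO (-0.0618 with no batch term, -0.0555 with the replicate block), HIS2 (-0.0246) and TRP1 (-0.001) in *stm1Δ* Ribo-Seq with no batch term and without *stm1Δ* replicate 1, and in *stm1Δ* RO PHA2 (0.0281 and 0.0264) and TRP3 (-0.0361 and -0.0367) with no batch term and the replicate block. None of these was called in those fits or in the fit with batch. Over all 45 members, dropping the batch term turned the sign of 3 in RNA-Seq, 4 in Ribo-Seq and 10 in RO in *stm1Δ*, of 8, 8 and 10 in *eif2aΔ* and of 4, 2 and 3 in *tma46Δ*. None of those was called with or without the batch term. Of the alternatives for single genes, 813 kept direction and side of the threshold, 36 passed it newly, 34 lost it and 8 reversed. The fit with batch as a term could not be made without *stm1Δ* replicate 1, or for *stm1Δ* without *eif2aΔ* replicate 4. Depth limits SER3 most in Ribo-Seq, where its count was as low as 14.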
